A study of Mus musculus with 45 samples.

Results

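The mitochondrial respiratory chain is built from subunits encoded in the nucleus and in mitochondrial DNA. The nuclear-encoded genes were taken as the rows of the expression table whose symbol starts with Nduf followed by a, b, c, s or v, with Uqcr, with Cox4 through Cox8 or with Atp5, or is Sdha, Sdhb, Sdhc or Sdhd. This rule used no measured value and found 98 of 26214 genes. They comprised 41 genes of complex I, 8 complex I assembly factors, 4 genes of complex II, 8 of complex III, 18 of complex IV, 17 of the ATP synthase and 2 pseudogenes named as such, Cox7c-ps1 and Ndufs5-ps. Complexes were assigned by symbol, so complex I as counted here includes Ndufa11b, which RefSeq annotates as a transcribed pseudogene, and Ndufa4, now known as a subunit of complex IV. Of the 98 genes, 78 were counted as housekeeping subunits: the genes of the 4 complexes and the ATP synthase without 8 tissue-specific isoforms and without the copies Ndufa11b and Ndufb4c. The subunits encoded in mitochondrial DNA were not analysed here.

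Complexes I and II pass electrons from NADH and succinate to ubiquinone, complex III hands them to cytochrome c, and complex IV reduces oxygen. Complexes I, III and IV pump protons, and the ATP synthase uses the resulting gradient to make ATP. Mouse oocytes and cleavage-stage embryos depend on mitochondrial oxidation of pyruvate, and the embryo inherits its mitochondria from the oocyte. Much of the maternal mRNA stored in the oocyte is degraded by the late two-cell stage, when the main wave of transcription from the zygotic genome takes place.

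RNA was sequenced from fully grown oocytes (FGOs), pooled for each library, and from single late two-cell embryos. Control FGOs came from H3f3b K36M-flox/+ females, which carry a conditional allele at the H3f3b locus for HA-tagged histone H3.3 with lysine 36 replaced by methionine (H3.3K36M). K36M FGOs came from H3f3b K36M-flox/+; Gdf9-Cre females, in which Cre is driven by the oocyte-specific Gdf9 promoter and the mutant histone is expressed, so all groups descended from carriers of the floxed allele. The FGOs were of a C57BL/6 and 129 hybrid strain and were taken at 3 to 4 weeks of age. The embryos were C57BL/6 / 129 X JF-1, came from superovulated females by in vitro fertilization and were harvested 31 to 32 h later. Those from K36M females can be H3f3b +/+ or carry the recombined allele, and the genotype of each embryo was not recorded in the labels. There were 3 control FGO, 3 K36M FGO, 7 control embryo and 8 K36M embryo libraries. An eighth control embryo, replicate 4, which the study set aside, was kept out of every comparison described here. It entered only an alternative fit and the scaling factors of an alternative normalization of the sums.

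Levels are given in TPM, a relative transcript level that sums to the same total in every library, that corrects for transcript length, so that genes can be compared within a library, and that keeps no sequencing depth. H3f3b, the altered locus, stood at 265 to 308 TPM in control FGOs and 377 to 418 TPM in K36M FGOs. Between 16707 and 18559 genes were above 0 TPM in the FGO libraries, 12115 to 17329 in the control embryos and 10894 to 14879 in the K36M embryos. The 6 oocyte markers summed to 13455 to 13567 TPM in control FGOs, to 11406 to 12840 TPM in K36M FGOs, without overlap, and to 370 to 1672 TPM in embryos, and 7 genes of zygotic genome activation summed to 34.5 to 73.9 TPM in FGOs and 215 to 2193 TPM in embryos. The 12 granulosa and cumulus markers summed to 139 to 155 TPM in control FGOs, 148 to 226 TPM in K36M FGOs and 86.6 to 399 TPM in embryos, none of them at 0 throughout a group. The 6 stromal markers reached at most 9.18 TPM in FGOs and 57.4 TPM in embryos, with Lum at 0 in all control FGOs and Dcn in all K36M embryos. Of the 5 blood markers, summing to at most 0.380 TPM in FGOs and 59.5 TPM in embryos, Hbb-bt was at 0 in every group. The part of other cells in the results was not tested. Pools of FGOs were compared with single embryos, and embryo libraries had more amplification cycles, so that stage and library type cannot be told apart. In bulk RNA, fewer transcripts per cell and fewer cells cannot be told apart either.

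Promoter sequence gives a first view of what these genes share. NRF1, the ETS factor GABP and YY1 are transcription factors long associated with respiratory chain promoters. RefSeq windows (GRCm38.p6) from 250 bases before to 50 bases after each annotated start were searched on both strands for the letters GCGCATGC, the core of the NRF1 site, CCGGAAG, an ETS core as bound by GABP, and AAGATGGC, a YY1 core. Windows were present for 77 of the 98 genes, too few to describe all of them, and for 66 of the 78 housekeeping subunits. The NRF1 core was in the windows of 15.2% of these subunits and 3.82% of the 19526 genes of the expression table with a window (3.05% of all 27025 genes with one). The ETS core was in 25.8% against 12.4% (9.93%), the YY1 core in 15.2% against 3.47% (3.19%), and any of the 3 in 47.0% against 18.03% (14.9%). Among the 28 genes called lower in both stage comparisons below, 23 had a window and 47.8% of these held any of the motifs, while among the 48 called in neither, 38 had a window and 19 of these held one.

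Stretches upstream of 4 starts are printed because these genes carry the stage results: Atp5b was higher in embryos of both lines, and Ndufc2, Sdhd and Uqcr11 were lower in both. Each is read 5′ to 3′ on the strand of the gene, lies wholly before the start, and shows any match to the 3 motifs in capitals. The Atp5b (chr10:128083123-128083272, plus strand) and Ndufc2 (chr7:97399853-97400002, plus strand) stretches hold none. The Uqcr11 stretch (chr10:80406831-80406980, minus strand) holds the ETS core beginning 66 bases before the start, and the Uqcr11 window also holds an NRF1 core outside the bases shown. In Sdhd (chr9:50603850-50603900, minus strand) the ETS core lies in reverse complement 46 bases before the start, and the 51 bases shown are the whole gap to Timm8b, transcribed in the opposite direction. A match is a run of letters, with no measurement of binding.
Atp5b: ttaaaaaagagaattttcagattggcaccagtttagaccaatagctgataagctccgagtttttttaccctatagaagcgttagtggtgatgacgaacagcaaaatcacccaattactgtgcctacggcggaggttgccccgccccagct
Ndufc2: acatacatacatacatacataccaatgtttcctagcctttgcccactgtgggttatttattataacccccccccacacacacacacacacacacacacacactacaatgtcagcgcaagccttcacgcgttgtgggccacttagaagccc
Sdhd: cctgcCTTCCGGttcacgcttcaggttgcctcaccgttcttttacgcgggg
Uqcr11: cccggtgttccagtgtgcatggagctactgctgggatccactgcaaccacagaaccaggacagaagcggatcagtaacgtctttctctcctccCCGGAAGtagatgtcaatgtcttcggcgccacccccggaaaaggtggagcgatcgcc

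Control FGOs held the respiratory chain genes at high and reproducible levels. Their summed level was 9256 ± 159 TPM (SD, n = 3), and the median housekeeping subunit had a mean of 92.1 TPM, above 87.2% of all genes detected. Of the 98 genes, 92 were above 0 in all 3 libraries, 34 had a mean of at least 100 TPM and only Cox8b was at 0 in every library of the series. The spread between libraries was small: the median SD of the housekeeping subunits was 0.154 on the log2(TPM + 1) scale, against 0.130 for all 8755 genes with a control FGO mean of at least 10 TPM. Complex I contributed 31.2% of the summed TPM, the ATP synthase 26.5%, complex IV 23.7%, complex III 8.47% and complex II 4.30%.

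Within each complex the subunits spanned a wide range, although most are present in equal numbers in the assembled enzyme. In complex I the highest mean was that of Ndufb11, an X-linked membrane-arm subunit, at 203 ± 17.3 TPM, and the lowest that of the transcribed pseudogene Ndufa11b, at 2.25 ± 1.96 TPM, followed by Ndufa4l2, a paralogue of Ndufa4, at 4.07 ± 1.57 TPM. In complex II Sdhd, a membrane anchor, was highest at 130.5 ± 4.56 TPM and Sdhb, the iron-sulphur subunit, lowest at 66.1 ± 6.99 TPM. In complex III Uqcrh, the hinge protein, stood at 186.5 ± 6.42 TPM and Uqcrc1, a core protein, at 20.9 ± 1.06 TPM. Complex II, with 4 genes, thus had a far narrower range than the others. Cox6c, a small membrane subunit of complex IV, was the highest of all 98 genes at 597 ± 17.1 TPM, and Atp5mpl, a small proteolipid of the ATP synthase, reached 591 ± 46.0 TPM. The lowest members detected in these complexes were Cox7b2, a paralogue known from testis, at 0.0600 ± 0.104 TPM and Atp5g2 at 4.68 ± 3.01 TPM. Of the assembly factors, Ndufaf4 was highest at 169 ± 11.9 TPM and Ndufaf1 lowest at 2.58 ± 1.17 TPM.

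The first genotype comparison asked whether oocytes expressing H3.3K36M, a histone known to inhibit H3K36 dimethylation, held different levels of these mRNAs. No respiratory chain gene was called. The summed level in K36M FGOs was 8679 ± 688 TPM, and by complex the K36M to control ratio of the means lay between 0.902 for complex IV and 1.03 for complex II. At an adjusted p under 0.05 (limma, Benjamini-Hochberg over all genes tested) 0 of 95 members passed, where 0.00726% of 13775 genes did. At an unadjusted p under 0.05, 14 members passed, 12 of them lower in K36M FGOs and 2 higher (14.7%), beside 10.5% of all genes. The median log2 fold change of the 95 members was -0.10 and that of all genes 0.01, and 67 members had a negative value (70.5%, beside 47.9% of all genes). Beside these values, the median sum of the oocyte markers was 13497 TPM in control and 12128 TPM in K36M FGOs, and that of the granulosa markers 148 and 210 TPM. The part of these in the members' values was not tested. The groups did not overlap for 9 members, 8 lower and 1 higher, beside 15.6% of all genes.

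The 5 members with the smallest p-values show the size of these differences. Ndufa12, a complex I accessory subunit, stood at 18.2, 18.4 and 26.8 TPM in the control libraries and 13.3, 9.12 and 10.8 TPM in the K36M libraries. The K36M values were all below the control values, with a log2 fold change of -0.86 ± 0.23 (SE) and an adjusted p of 0.338 (limma). Sdhb was the exception in direction, at 61.5, 74.1 and 62.7 TPM in control and 82.5, 86.5 and 98.6 TPM in K36M FGOs, again without overlap (log2 fold change 0.43 ± 0.12, limma adjusted p = 0.362). Cox6b2, a complex IV paralogue known from testis, was at 56.6, 51.1 and 50.3 TPM and at 38.1, 42.7 and 31.8 TPM (-0.49 ± 0.14, limma adjusted p = 0.379). Atp5mpl was at 602, 541 and 631 TPM and at 531, 449 and 422 TPM, and Atp5g1, a source of the ring-forming subunit c, at 58.4, 54.6 and 51.7 TPM and at 40.02, 46.7 and 35.6 TPM (limma adjusted p = 0.383 and 0.396). These 3 genes were lower in every K36M library than in any control library. Without K36M FGO replicate 1, 300 genes passed the test in place of 1, and 2 members were among those lower: Atp5mpl (log2 fold change -0.44, limma adjusted p = 0.0455) and Cox5b, a complex IV subunit named here after its value was seen (-0.37, limma adjusted p = 0.0442).

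**Figure D1:**
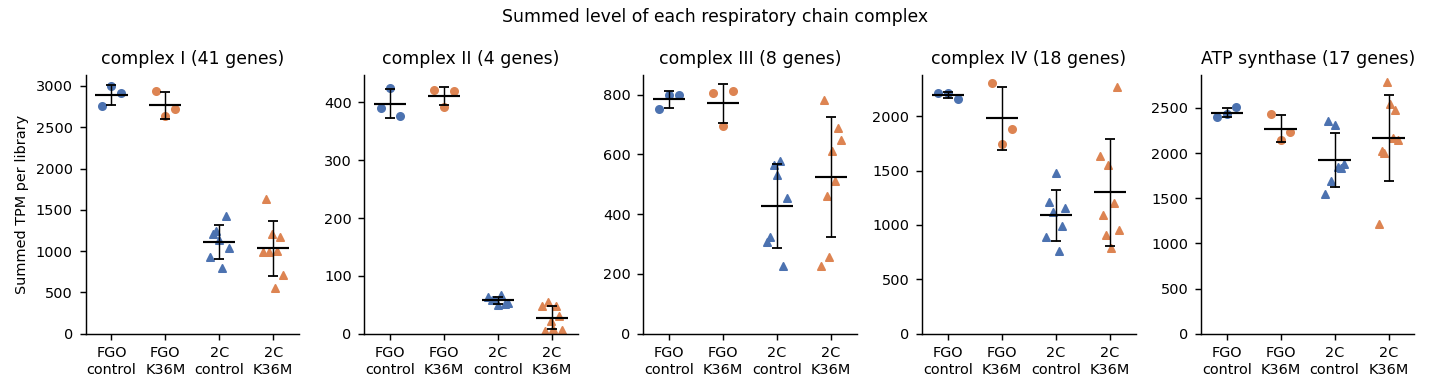
Summed TPM of the genes of each complex in every library, with points for libraries and bars for the group mean ± SD (3 control FGO, 3 K36M FGO, 7 control embryo and 8 K36M embryo libraries). The mean sum of the ATP synthase is 2449 TPM in control FGOs and 1923 TPM in control embryos, with every control embryo below every control FGO library, and that of complex II is 398 and 57.4 TPM.

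Between FGOs and two-cell embryos the complexes parted. The summed level of all 98 genes was 4926 ± 648 TPM in control embryos (n = 7), 53.2% of the control FGO level, and 5433 ± 868 TPM in K36M embryos (n = 8), 62.6% of the K36M FGO level. The ATP synthase genes stood at 78.5% and 95.7% of their FGO sum in the control and K36M lines, complex III 54.4% and 67.8%, complex IV 49.5% and 65.7%, and complex I 38.3% and 37.3%. Complex II stood at 14.4% and 6.81%. The ATP synthase value rests in part on Atp5b: the other 16 genes summed to 2268 ± 48.3 TPM in control FGOs and 1374 ± 268 TPM in control embryos, 60.6%, and to 73.8% of the FGO sum in the K36M line. Control embryos, at 1551 to 2351 TPM for all 17 genes, did not overlap control FGOs at 2403 to 2507 TPM, whereas in the K36M line the ranges overlapped. As shares of the summed TPM of these mRNAs, the ATP synthase genes made up 39.0% and 39.9% in the control and K36M embryos, and the complex I genes 22.5% and 19.0%. These sums are descriptions, without a test.

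Gene by gene, the control stage comparison called 34 of 96 members: 33 fell and 1 rose, beside 13.4% of 17358 genes higher and 13.2% lower. Without any 1 of the 3 control FGO libraries 20 or 21 members were called, and with array weights 63. Thus 34.4% of the members and 13.2% of all genes were lower, and 1.04% and 13.4% higher. The median log2 fold change was -2.07 for the members and 0.00 for all genes. To leave out genes low in FGOs, the 76 housekeeping subunits with a control FGO mean of at least 10 TPM were set beside all 8755 genes past that floor. Of the subunits 36.8% were lower and 1.32% higher, against 21.7% and 12% of those genes, with median log2 fold changes of -2.21 and -0.74. The floor does not match levels, as the median housekeeping subunit stood at 92.1 TPM in control FGOs, above 87.2% of all genes detected. The groups did not overlap for 42 members lower in embryos and 3 higher, beside 18.2% and 14.1% of all genes.

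In the K36M line, whose libraries are all different ones, 43 of 96 members were called. Of these, 41 fell and 2 rose, 42.7% and 2.08% of the members, beside 18.6% and 10.8% of all genes. The median was -2.21 for the members and -0.18 for all genes, and among genes with a K36M FGO mean of at least 10 TPM, 44.2% of 77 housekeeping subunits and 31.1% of 8742 genes were lower, and 2.60% and 11.1% were higher, with medians of -2.31 and -1.04. The groups did not overlap for 33 members lower and 1 higher, beside 17.2% and 9.04% of all genes. In both lines 28 members fell and 1 rose, and the share of all genes called in both is not given here. A further 13 members were lower in the K36M line alone and 5 in the control line alone, 1 was higher in the K36M line alone and 48 were called in neither. The interaction test below called none of these differences between lines.

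**Figure D2:**
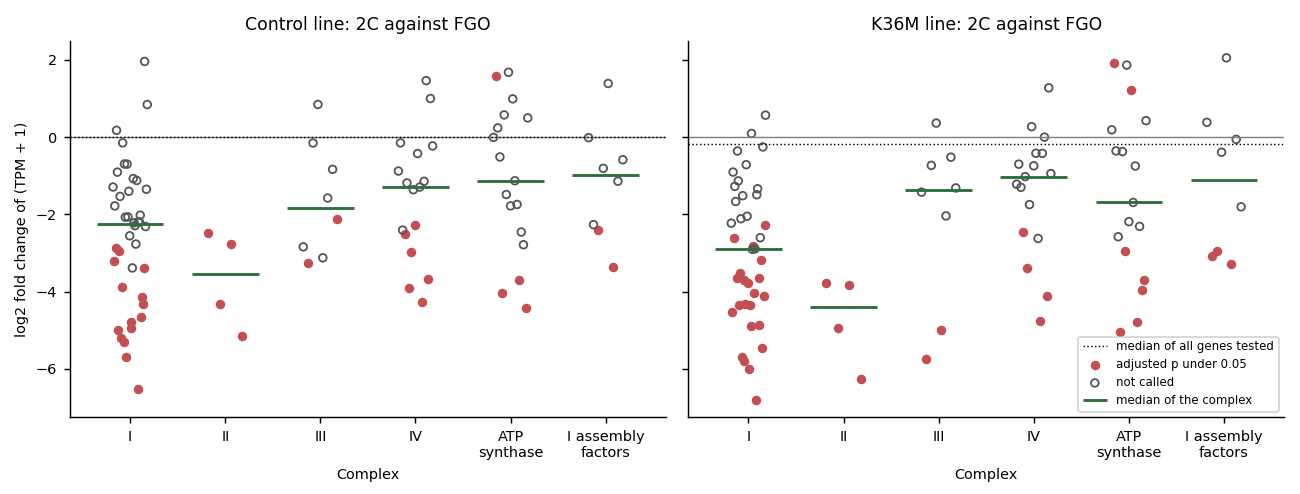
Log2 fold change on the log2(TPM + 1) scale from FGOs to two-cell embryos for each member, by complex, in the control and the K36M line, with filled points for an adjusted p under 0.05, a bar for the median of each complex and a dotted line for the median of all genes. In the control line the median is -3.54 for complex II, -2.25 for complex I and -1.13 for the ATP synthase.

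The ATP synthase held both members that rose in these fits. With only the embryos that had at least 14000 genes above 0, a choice made after seeing the data, 6 of 97 members were called higher in the control line and 5 of 97 in the K36M line (6.19% and 5.15%), beside 20.9% and 17.2% of all genes. Atp5b encodes the catalytic beta subunit of the F1 head. It stood at 173, 185 and 185 TPM in control FGOs and at 166, 140 and 177 TPM in K36M FGOs. Control embryos ranged from 382 to 687 TPM with a median of 545 TPM, and K36M embryos from 511 to 783 TPM with a median of 595 TPM. Every embryo was above every FGO library of its line. The level was 2.97-fold higher in control embryos (log2 fold change 1.57 ± 0.20, limma adjusted p = 1.84e-06) and 3.78-fold higher in K36M embryos (1.92 ± 0.19, limma adjusted p = 6.78e-08), and Atp5b was the highest of the 98 genes in both embryo groups.

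Atp5j encodes coupling factor 6 of the peripheral stalk. Its level was 93.9, 106 and 107 TPM in control FGOs and 103, 95.8 and 86.3 TPM in K36M FGOs. It ranged from 121 to 318 TPM (median 200 TPM) in control embryos and from 71.5 to 380 TPM (median 244 TPM) in K36M embryos. The control groups did not overlap and the K36M groups did. The change passed the test in the K36M line (log2 fold change 1.22 ± 0.38, limma adjusted p = 0.0164) but not in the control line (0.99 ± 0.39, limma adjusted p = 0.0592), and in the K36M line it no longer passed without K36M FGO replicate 2 (limma adjusted p = 0.0581) or replicate 3 (0.0745). Atp5j lies on chromosome 16 (84827871 to 84835857, GRCm38.p6) and overlaps Gabpa, on the other strand, by 967 bases. Gabpa, the DNA-binding subunit of GABP, ranged from 4.77 to 6.95 TPM in control FGOs and 184 to 450 TPM in control embryos, and Atp5j shares 397 of its 3130 exon bases (12.7%) with it. Without a stated strand setting, reads from those shared bases cannot be told apart.

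The other ATP synthase subunits fell or were not called. Of 17, 3 were lower in the control line (17.6%) and 5 in the K36M line (29.4%). These shares lie close to those of all genes, 13.2% and 18.6%, or of genes with an FGO mean of at least 10 TPM, 21.7% and 31.1%. Atp5l, subunit g of the membrane part, stood at 64.3, 43.8 and 36.2 TPM in control FGOs and at 19.5, 36.2 and 35.4 TPM in K36M FGOs. Its median was 2.42 TPM in control embryos (0 to 28.6 TPM), and it was listed at 0 in 7 of 8 K36M embryos and at 1.198 TPM in the other. The groups did not overlap in either line, with log2 fold changes of -3.69 ± 0.93 and -4.78 ± 0.91 (limma adjusted p = 0.00455 and 0.000318). Atp5e, the epsilon subunit of the central stalk, and Atp5o, which joins the F1 head to the peripheral stalk, were also lower in both lines (log2 fold changes -4.04 and -4.43 in the control line). Both were named after their values were seen, and Atp5o is 1 of 4 members that share at least 20% of their exon bases with another gene.

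All 4 succinate dehydrogenase genes fell in both lines, beside 21.7% and 31.1% of genes with an FGO mean of at least 10 TPM in the control and K36M lines. Sdha, the flavoprotein that binds succinate, stood at 139, 129 and 111 TPM in control FGOs and at 136, 140 and 135 TPM in K36M FGOs. It ranged from 5.15 to 37.4 TPM (median 27.2 TPM) in control embryos and from 0.458 to 28.6 TPM (median 17.5 TPM) in K36M embryos, below every FGO library (log2 fold changes -2.48 ± 0.82 and -3.77 ± 0.80, limma adjusted p = 0.0267 and 0.000964). Sdha was the only gene of complex II above 0 in all 15 embryos. Sdhd, which anchors the enzyme in the membrane and whose upstream stretch is printed above, stood at 125, 133 and 133 TPM in control FGOs and 129, 108 and 119 TPM in K36M FGOs. Its median was 2.19 TPM in control embryos (0 to 32.6 TPM) and 0 in K36M embryos (0 to 7.18 TPM). Embryos and FGOs were far apart in both lines (log2 fold changes -5.16 ± 0.91 and -6.25 ± 0.89, limma adjusted p = 0.000147 and 9.34e-06). Timm8b, whose start lies 51 bases from that of Sdhd, ranged from 164 to 214 TPM in control FGOs and from 16.04 to 573 TPM in control embryos, so the groups overlapped. Sdhb and Sdhc, the other membrane anchor, had log2 fold changes of -4.32 and -2.77 in the control line (limma adjusted p = 0.00367 and 0.0490) and -4.94 and -3.83 in the K36M line (0.000871 and 0.00562).

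Complex I, the largest, had the most members called by number, 15 of 40 lower in the control line (37.5%) and 22 of 40 in the K36M line (55.0%), and none higher, beside 13.2% and 18.6% of all genes lower, or 21.7% and 31.1% of those with an FGO mean of at least 10 TPM. Ndufc2, a membrane-arm accessory subunit, had the largest change of the 96 members tested in both lines. It stood at 127, 159 and 148 TPM in control FGOs and 127, 150 and 133 TPM in K36M FGOs, and was listed at 0 in 6 of 7 control embryos and 6 of 8 K36M embryos, with highest values of 24.0 and 1.81 TPM. The log2 fold changes were -6.51 ± 0.83 and -6.81 ± 0.81 (limma adjusted p = 2.25e-06 and 8.20e-07). Their size depends on the pseudocount, as the embryo medians are 0.

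Ndufa8, an accessory subunit facing the intermembrane space, stood at 97.5, 93.4 and 94.7 TPM in control FGOs and 106, 113 and 87.3 TPM in K36M FGOs. Its medians were 1.28 TPM (0 to 19.1 TPM) in control and 0 TPM (0 to 11.8 TPM) in K36M embryos, without overlap with FGOs (log2 fold changes -5.31 ± 0.94 and -5.68 ± 0.92, limma adjusted p = 0.000152 and 4.83e-05). Ndufs6, an accessory subunit near the NADH-oxidizing module, stood at 15.8, 41.8 and 35.0 TPM in control and 14.2, 26.1 and 19.0 TPM in K36M FGOs. Control embryos lay between 0 and 6.18 TPM and K36M embryos between 0 and 16.6 TPM, so only the K36M groups overlapped (log2 fold changes -4.32 ± 0.90 and -3.18 ± 0.88, limma adjusted p = 0.000903 and 0.00812). Among the 7 core subunits, which carry the flavin and iron-sulphur centres, 1 fell in the control line (14.3%, near the 13.2% of all genes) and 4 in the K36M line (57.1%, beside 18.6%), with medians of -2.19 and -2.28. Of genes with an FGO mean of at least 10 TPM, 21.7% and 31.1% were lower in the 2 lines. The core subunit Ndufs8, named after its values were seen, stood at 15.04 to 33.4 TPM in control FGOs and 55.1 to 197 TPM in control embryos without overlap, and at 25.0 to 31.3 TPM and 0 to 155 TPM in the K36M line. Its log2 fold change of 1.96 in the control line did not pass the test (limma adjusted p = 0.230). Of the 8 assembly factors, 2 were lower in the control line (25.0%) and 3 in the K36M line (37.5%), near the shares of genes with an FGO mean of at least 10 TPM.

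**Figure D3:**
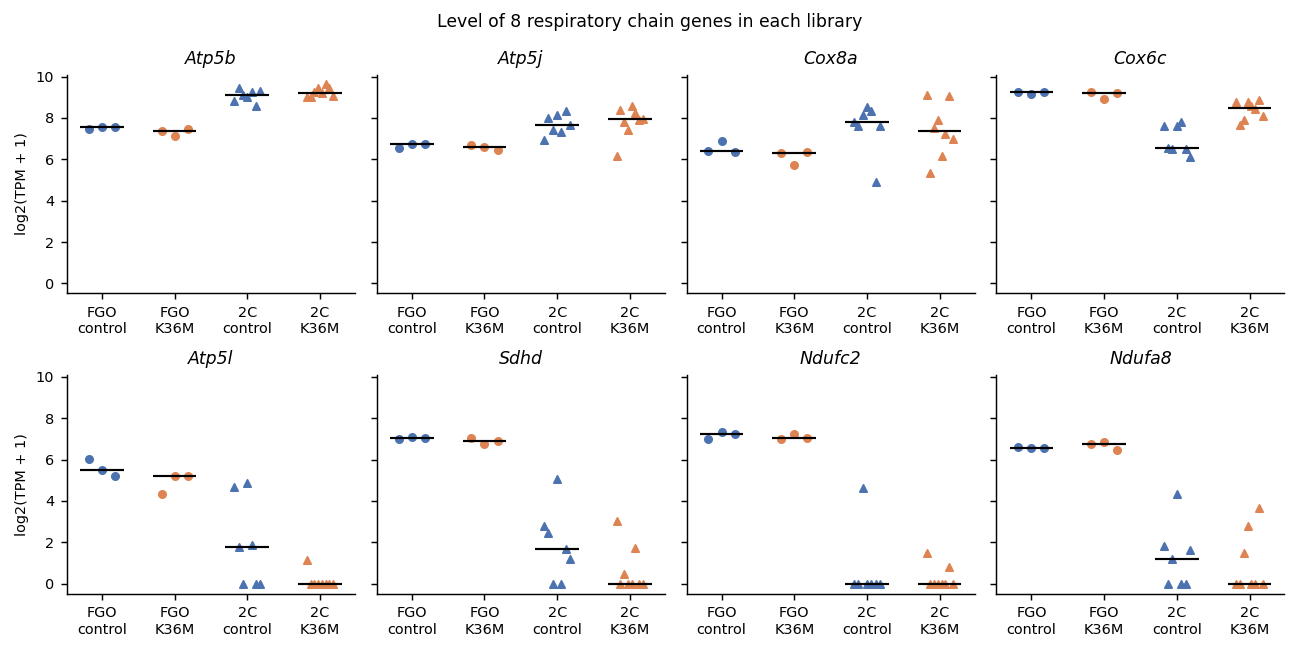
Level of 8 members in every library on the log2(TPM + 1) scale, with bars for group medians. Atp5b lies above its FGO level in all 15 embryos, while Ndufc2 is listed at 0 in 12 of the 15.

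In complex III 2 of 8 members fell in each line (25.0%), beside 21.7% and 31.1% of all genes with an FGO mean of at least 10 TPM. Uqcr11, a small subunit whose upstream stretch is printed above, fell in both (log2 fold changes -3.26 ± 1.18 and -5.73 ± 1.16, limma adjusted p = 0.0427 and 0.000573), with medians of 9.19 TPM (0 to 239 TPM) in control and 0 TPM (0 to 5.51 TPM) in K36M embryos. Uqcrc1, the lowest of its complex in FGOs at 20.5, 20.2 and 22.1 TPM, ranged from 19.3 to 105 TPM in control embryos and was not called. In complex IV 6 of 17 members were lower in the control line (35.3%) and 4 of 17 in the K36M line (23.5%), beside 13.2% and 18.6% of all genes. Among genes with an FGO mean of at least 10 TPM the shares were 21.7% and 31.1%, so the K36M share of complex IV lay below the latter. Cox8a, the housekeeping form of a small subunit, had values of 84.9, 117 and 81.1 TPM in control FGOs and a median of 219 TPM (28.9 to 363 TPM) in control embryos. The groups overlapped, and its log2 fold change of 1.00 was not called (limma adjusted p = 0.301). Of the 3 X-linked members, Ndufa1, Ndufb11 and Cox7b, none was called in either line.

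Several subunits are encoded by more than 1 gene, and no test compared these copies with each other. Atp5g1, Atp5g2 and Atp5g3 encode the same mature subunit c from different genes. Atp5g1 was the highest of these in control FGOs at 51.7 to 58.4 TPM and ranged from 56.8 to 163 TPM in control embryos (median 73.0 TPM). Atp5g3 stood at 6.27 to 13.9 TPM in control FGOs and at 0.952 to 92.0 TPM, with a median of 52.1 TPM, in control embryos. Atp5g2, at 2.12 to 7.996 TPM in control FGOs, was listed at 0 in 5 of 7 control and 7 of 8 K36M embryos, and fell in the K36M line (log2 fold change -2.94, limma adjusted p = 0.00509). The changes of Atp5g3 (log2 fold changes 1.68 and 1.87) did not pass the test.

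Cox6a2, the heart and muscle form of a complex IV subunit, was present in control FGOs at 42.9, 23.5 and 33.9 TPM, and its median was 0 in both embryo groups. It fell in both lines (log2 fold changes -3.90 ± 1.12 and -3.38 ± 1.10, limma adjusted p = 0.0118 and 0.0222), whereas its housekeeping partner Cox6a1, at 142 to 181 TPM in control FGOs, had a median of 135 TPM in control embryos. Cox6b2 had a median of 30.2 TPM (0 to 129 TPM) in control embryos and 92.9 TPM (1.55 to 159 TPM) in K36M embryos, and its partner Cox6b1 fell in the control line from 92.6 to 113 TPM to at most 45.5 TPM (log2 fold change -2.97 ± 1.10, limma adjusted p = 0.0484). Cox4i2 stood at 8.56 to 12.8 TPM in control FGOs, where Cox4i1 stood at 212 to 221 TPM. In embryos it varied more, from 0 to 81.4 TPM in control embryos (median 13.3 TPM) and 0 to 53.5 TPM in K36M embryos (median 1.51 TPM), and in K36M embryo 8 it was above Cox4i1, at 53.5 against 2.55 TPM. Cox7a2l, which takes part in supercomplex assembly, fell in both lines from 101, 114 and 105 TPM in control FGOs to a median of 4.36 TPM in control embryos (log2 fold change -4.27 ± 1.11, limma adjusted p = 0.00584), and Cox7a1, the muscle form, reached at most 3.47 TPM in control FGOs. Ndufa4l2, Cox7b2, Cox8c and Ndufa11b were listed at 0 in all K36M embryos.

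Values of 0 are part of these embryo levels. No housekeeping subunit was at 0 in any FGO library, while 4 to 24 of the 78 were at 0 in a control embryo and 9 to 31 in a K36M embryo. As a share of all gene and embryo pairs, 16.5% were at 0 in control and 26.1% in K36M embryos, against 7.27% and 12.0% for all genes with a control FGO mean of at least 10 TPM. The shares were 21.8% and 35.2% for complex I, 21.4% and 28.1% for complex II, 7.14% and 20.3% for complex III, 10.4% and 10.2% for complex IV, and 11.8% and 18.4% for the ATP synthase. Only 22 subunits were above 0 in all 15 embryos, 6 of 11 in complex IV, 4 of 8 in complex III, 8 of 17 in the ATP synthase, 1 of 4 in complex II and 3 of 38 in complex I. These 22 had a median control FGO level of 151 TPM and a median of 1831 exon bases, the 36 at 0 in 1 to 5 embryos 72.7 TPM and 1828 exon bases, and the 16 at 0 in 6 to 10 embryos 76.8 TPM and 1131 exon bases. The 4 at 0 in 11 or more embryos, Ndufa3, Ndufb4, Ndufc2 and Atp5g2, had 79.2 TPM and 1349 exon bases. In the study's list of read totals, every embryo library had fewer reads than any FGO library, and the part of depth in these zeros was not tested. The spread between embryos was wide, with a median SD on the log2(TPM + 1) scale of 1.76 in control and 1.87 in K36M embryos for the housekeeping subunits, and 0.903 and 1.16 for genes with a control FGO mean of at least 10 TPM.

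**Figure D4:**
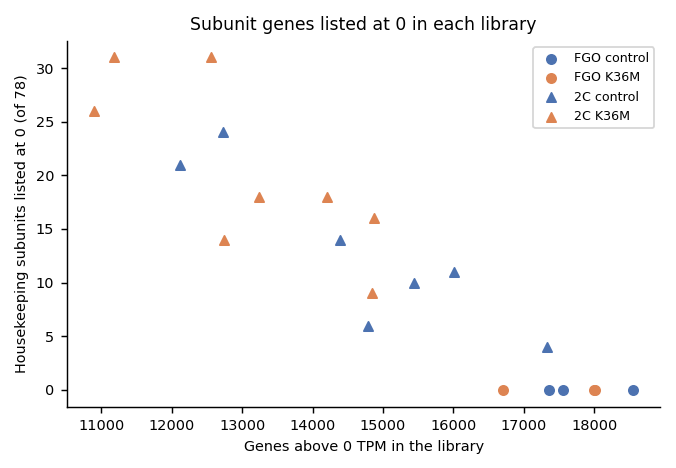
Housekeeping subunits at 0 TPM (of 78, vertical axis) against the number of genes above 0 TPM (horizontal axis), 1 point per library, by group. FGO libraries lie at 0, control embryos between 4 and 24 and K36M embryos between 9 and 31, and the embryo libraries also differ in the number of genes above 0.

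The second genotype comparison set embryos from K36M females against control embryos. No respiratory chain gene was called, nor was any of 17362 genes (0%) at an adjusted p under 0.05 in limma. At an unadjusted p under 0.05, 8 of 95 members passed, 6 lower and 2 higher, beside 7.71% of all genes. The median log2 fold change was -0.37 for the members and -0.26 for all genes, and the groups did not overlap for any member, beside 0.115% of all genes. The number of genes above 0 and the number of subunits at 0 differed between these groups in the same sense as the negative medians, and their part in the result was not tested.

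Cox6c had the smallest p-value of the members, ninth of all genes tested. It stood at 609, 577 and 605 TPM in control FGOs and 611, 475 and 579 TPM in K36M FGOs. Control embryos ranged from 67.2 to 222 TPM with a median of 92.3 TPM, and K36M embryos from 200.3 to 458 TPM with a median of 357 TPM. The groups overlapped only between 200.3 and 222 TPM. The level was 2.67-fold higher in K36M embryos (log2 fold change 1.42 ± 0.30, limma unadjusted p = 0.00011, adjusted p = 0.185), and over the alternatives tried the adjusted p ranged from 0.102 to 0.563. The fall from FGOs was called in the control line (log2 fold change -2.27 ± 0.34, limma adjusted p = 1.96e-05) and not in the K36M line (-0.74 ± 0.33, limma adjusted p = 0.0982). The difference between these 2 changes, tested as an interaction, was 1.53 ± 0.47 with an adjusted p of 1.00 (limma, unadjusted p = 0.0036). When libraries were weighted by their quality (limma array weights), it was 1.70 with an adjusted p of 0.0409. These weights also raised the calls of all genes in both stage comparisons, and the number of all genes called in the interaction with them is not given here.

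Of the other members with small p-values in embryos, Ndufb10, Uqcr11 and Ndufa7 had many values at or near 0 in K36M embryos. Ndufb10, a membrane-arm subunit of complex I, ranged from 16.3 to 133 TPM with a median of 62.2 TPM in control embryos, and was listed at 0 in 5 of 8 K36M embryos with a highest value of 156 TPM (log2 fold change -3.80 ± 1.04, limma adjusted p = 0.389). Ndufa4, named for complex I and counted with it here, had a median of 9.24 TPM (0 to 86.2 TPM) in control and 43.2 TPM (17.7 to 119 TPM) in K36M embryos (limma adjusted p = 0.561). The groups overlapped for both genes. For Uqcr11 and Ndufa7 the log2 fold changes were -2.79 and -2.04 (limma adjusted p = 0.563 and 0.578). The complex II genes summed to 49.8 to 67.7 TPM in control embryos (median 58.3 TPM) and 4.90 to 55.5 TPM in K36M embryos (median 26.7 TPM), a ratio of the means of 0.487, where the ratio was 0.932 for complex I, 1.23 for complex III, 1.196 for complex IV, 1.13 for the ATP synthase and 1.10 for all members. The ranges overlapped, and none of the 4 genes was called. In the interaction of genotype and stage, 0 of 96 members and 0 of 17358 genes (0%) were called by limma, and at an unadjusted p under 0.05 only Cox6c passed, beside 1.15% of all genes.

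Genes of the same pathways outside the 98 were read from lists in the same fits. Genes called in the stage comparisons are given as the number of higher and lower among those tested, to be read beside 13.4% higher and 13.2% lower of all genes in the control line and 10.8% and 18.6% in the K36M line. For lower calls among genes with an FGO mean of at least 10 TPM the shares are 21.7% and 31.1%. The mitochondrial ribosomal proteins had 3 higher and 18 lower (23.1%) of 78 in the control line and 2 and 32 (41.0%) in the K36M line, and the tricarboxylic acid cycle 0 and 5 of 13 and 0 and 6. Of 21 complex IV assembly genes, 1 was higher and 6 were lower in each line. Sco1, a copper chaperone, rose (log2 fold changes 2.90 and 3.37, limma adjusted p = 0.000108 in the control line), and Surf1, needed for early complex IV assembly, fell in the K36M line (-5.38, limma adjusted p = 1.37e-06). Surf1 stood at 5.10 to 36.5 TPM in control embryos and 0 to 3.85 TPM in K36M embryos, without overlap, with a log2 fold change of -3.50 ± 0.71 that did not pass the test (limma adjusted p = 0.125). Of 10 complex II and III assembly genes, 1 was higher and 3 were lower in the control line and 1 and 4 in the K36M line, and Sdhaf4, a complex II assembly factor, fell in both (log2 fold changes -5.95 and -4.41).

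Of 8 nuclear regulators of respiratory genes tested, 5 were called higher in the control line and 4 in the K36M line, and none was called lower, beside 13.4% and 10.8% of all genes higher. Gabpa rose from 4.77 to 6.95 TPM to 184 to 450 TPM (log2 fold change 5.48 ± 0.36, limma adjusted p = 3.77e-11), and in the K36M line from 4.38 to 11.8 TPM to 210 to 528 TPM. Yy1 and Pprc1, a coactivator, had log2 fold changes of 3.53 and 3.29 in the control line (limma adjusted p = 7.28e-07 and 2.09e-06) and 3.25 and 3.24 in the K36M line. Nrf1 ranged from 51.1 to 55.8 TPM in control FGOs and from 14.1 to 89.1 TPM in control embryos. In the K36M line it ranged from 56.7 to 67.8 TPM and from 20.7 to 90.0 TPM, so its groups overlapped in both lines. Of the genes for mitochondrial DNA maintenance and transcription, 1 of 11 was higher and 1 lower in the control line and 1 and 2 in the K36M line, the higher one in the control line being Tfb2m, a mitochondrial transcription factor (2.93, limma adjusted p = 5.19e-07). The carriers of adenine nucleotides and of the outer membrane had 2 higher and 2 lower of 8, then 1 and 3. Coenzyme Q synthesis had 2 and 1 of 13, then 1 and 4. Complex I assembly genes outside the 98 had 1 and 2 of 8, then 0 and 2. Of the 3 genes for cytochrome c and c1, 1 was lower in each line, the testis form Cyct (log2 fold changes -3.50 and -4.28), and of 4 genes for assembly or inhibition of the ATP synthase none was called. No gene of these lists was called in the genotype comparisons or the interaction.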

How the data were processed

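RNA-seq libraries were prepared with a SMART-Seq stranded kit and sequenced as paired ends. The authors trimmed reads with Trim Galore, mapped them to mm10 with HISAT2, removed ribosomal RNA reads with BEDTools, counted with featureCounts and tested counts with edgeR. The deposited table holds TPM values of 26214 genes in 22 libraries, each summing to the same total, and the gene lengths, annotation and strand setting behind them are not given in the sources used here. TPM keeps no depth, the read totals that the study lists entered no computation here, and the number of libraries limits the precision. Here log2(TPM + 1) of genes with a mean of at least 1 TPM in the libraries fitted was tested with limma 3.58.1 (R 4.3.3, eBayes with a trend, Benjamini-Hochberg threshold 0.05). Each genotype comparison was fitted on its own groups, and the stage comparisons and the interaction on all 4 groups, 21 libraries. Fold changes on this scale understate changes of low genes. The labels number the libraries without saying whether they came from separate females, so p-values measure the spread between these libraries only. The members and the lists were chosen with earlier results of these data known. Genes were named by a rule: the highest and lowest of each complex in control FGOs, those called or with the 5 smallest p-values in the genotype comparisons and the interaction, 5 per direction in the stage comparisons, paralogue families, X-linked members and Cox6c. Control embryo replicate 4 was left out as in the study, and added in an alternative. Pseudocount, filter, normalization, weights and left-out libraries were varied. Exon overlaps came from GENCODE vM21.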

Additional observations from a re-analysis of the deposited data

Results flagged for a closer look

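In groups of 4 to 10 embryos, a highest or lowest value was checked for a gap from the others that exceeds Dixon's 95% limit, for 6 sums and 17 named genes in each of the 2 embryo groups. Of these 46 groups 5 held such a value. The limit is passed by about 1 in 20 groups of normally spread values. That rate does not hold for groups mostly at or near 0, as these 5 were. All 5 were single high values, on the log2(TPM + 1) scale. Atp5l was at 1.14 in K36M embryo 1 (1.198 TPM), with 0 in all other K36M embryos. Ndufa7 was at 4.76 in K36M embryo 1 (26.1 TPM), where the others lay between 0 and 3.19 TPM. Ndufa8 was at 4.33 in control embryo 5 (19.1 TPM), where the others lay between 0 and 2.52 TPM. Ndufc2 was at 4.64 in control embryo 3 (24.0 TPM), with 0 in the others, and Ndufs6 at 2.84 in control embryo 1 (6.18 TPM), where the others lay between 0 and 1.22 TPM.

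Control embryo 4, which was kept out of the main comparisons, had a summed complex I level of 1712 TPM, above the highest of the 7 control embryos used, 1421 TPM. Its complex II genes summed to 22.0 TPM, below the lowest of the 7, 49.8 TPM, and 25 of the 78 housekeeping subunits were at 0.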

How the results depend on the processing

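For single genes, only those named by p-value in a comparison, and Cox6c, were followed under other settings. Of these values, 413 kept their direction and side of the threshold, 2 gained the call (Atp5mpl in FGOs, Cox6c in the interaction), 2 lost it (Atp5j) and none reversed. Genes named for other reasons were not followed singly, among them Sdhc and Cox6b1, whose calls in the control line lay close to the threshold. In the embryo genotype comparison the count of members called was 0 under all 10 alternatives. In FGOs it was 0 to 2 when a library was left out, 2 without K36M FGO replicate 1, where 300 genes passed instead of 1. In the control stage comparison the 34 calls became 21 with a pseudocount of 0.1, 63 with array weights and 20 to 31 when an FGO library was left out, 20 or 21 when it was a control one. The calls of all genes, 4615, became 9730 with array weights and 2844 to 2877 without a control FGO library. In the K36M stage comparison the 43 calls ranged from 29 to 61, and the 5094 calls of all genes became 8527 with array weights. The interaction had 1 call with array weights, a setting that raised the calls of all genes in both stage comparisons. The number of all genes called in the interaction with these weights is not given here. Adding control embryo 4 gave 31 calls in the control and 42 in the K36M stage comparison. With median-of-ratios scaling the summed level became 9706 TPM in control FGOs and 4213 TPM in control embryos. The factors for these sums were computed over all 22 libraries, control embryo 4 included. The sum over housekeeping subunits alone in control FGOs was 8558 TPM as deposited and 8974 TPM with that scaling. In the fits, with factors from the libraries fitted, such scaling moved the median of all genes from 0.00 to -0.19 in the control and from -0.18 to -0.32 in the K36M stage comparison. Deviations of like-numbered libraries correlated at 0.0145 to 0.101 in FGOs and at -0.101 to 0.0968 in embryos, and not every library correlated best with its own number, so the samples share only a number. With a replicate block, 0 members were called in FGOs and 0 in embryos. With embryos of at least 14000 genes above 0 only (5 control and 3 K36M), an alternative chosen after seeing the data, 47 members were called in the control line (6 higher, 41 lower, beside 20.9% and 19.2% of all genes), 30 of them among the 34, and 42 in the K36M line (5 higher, 37 lower, beside 17.2% and 20.7%), 36 of them among the 43, and 0 in the genotype comparison. The causes were not tested. TPM keeps no depth, so an embryo value of 0 limits no level.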
